A study of Homo sapiens with 20 samples.

Results

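The GW182 proteins and the enzymes they call to a silenced messenger were followed here as 10 human genes, namely TNRC6A, TNRC6B, TNRC6C, CNOT1, CNOT6, CNOT7, PAN2, PAN3, DDX6 and EDC4. They were found by gene symbol among the 57087 genes to which the transcripts in the files could be assigned, all 10 were present, and all 10 passed the filter on low counts in every comparison. The data are transcript abundances of 14 samples of human embryonic kidney cells. mRNA-seq compared 3 samples of wt HEK293T cells with 3 samples of a line labelled HEK293 2B that carries an inducible shRNA against Dicer (shDicer), and the labels give 3 µg/ml doxycycline for 7 days in both groups. ChrRNA-seq, which sequences RNA that stays bound to chromatin and is therefore rich in nascent transcripts, covered wt, shDicer, an inducible shRNA against Ago2 (shAgo2) and a transfected shRNA plasmid against Drosha (DroshaKD), with 2 samples each. The labels give 3 µg/ml doxycycline for 72 hours for the shDicer and shAgo2 samples of this assay. No line with a control shRNA is among these samples, so that the knockdown and the cell line that carries it cannot be told apart. No doxycycline is given for the wt and DroshaKD samples of chrRNA-seq, so that in this assay the inducible lines and treatment with doxycycline cannot be told apart either.

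MicroRNAs silence a messenger through an Argonaute protein, which binds one of the 3 GW182 paralogs, encoded by TNRC6A, TNRC6B and TNRC6C. GW182 has no enzymatic activity of its own. It recruits the PAN2-PAN3 complex, in which PAN2 is the nuclease that trims the poly(A) tail and PAN3 holds it to the target, and the CCR4-NOT complex, in which CNOT1 is the scaffold and CNOT6 and CNOT7 are nucleases of different families. CNOT1 also binds the helicase DDX6, which represses translation and links deadenylation to decapping, and EDC4 is the scaffold of the decapping complex in processing bodies.

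Between 10216430 and 21553760 estimated counts were deposited per sample. DICER1 was lower in the shDicer samples of mRNA-seq by 1.49 on the log2 scale, from a mean of 247 to 87.8 CPM (counts scaled to a common library size), while the difference in chrRNA-seq did not pass the threshold (122 against 108 CPM). AGO2 fell by 0.62 in the shAgo2 samples, in which DICER1 was higher by 0.78. DROSHA stood at 150 ± 5.24 CPM in chromatin RNA of wt and at 157 ± 12.9 CPM (SD, n = 2) in the libraries labelled DroshaKD. The chromatin RNA of its target was thus not lower in this group. Steady-state RNA was not sequenced for DroshaKD, so that these values do not measure the knockdown of the messenger. The study reports a successful knockdown of Drosha by western blot. It also measured steady-state Drosha RNA by qRT-PCR in the samples of chrRNA-seq, with the values shown in a figure only. Of the markers of the HEK293 line, LIN28B and IGF2BP1 were present in every sample, whereas PAX2 was at 3 counts or fewer in each mRNA-seq sample and NEFL had means of 16.6 CPM in wt and 454 CPM in shDicer mRNA-seq. Of the blood markers, HBB was at 0 in all wt and DroshaKD samples and at 22.3 to 34.8 TPM (a share of the library corrected for transcript length) in the shDicer samples of mRNA-seq, while CD3E was at 0 there and PTPRC had at most 2 counts. The part of these shifts in the results on the 10 genes was not tested.

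Of the members, 3 lie on chromosome 16. On GRCh38, TNRC6A occupies chr16:24610209-24827632, CNOT1 chr16:58519951-58629885 and EDC4 chr16:67873052-67884499. TNRC6B lies at chr22:40044817-40335808, TNRC6C at chr17:77958703-78108822, CNOT6 at chr5:180494379-180578358, PAN2 at chr12:56316223-56334053, PAN3 at chr13:28138506-28295335 and DDX6 at chr11:118747763-118791164. Each is annotated as protein-coding, with between 4 transcripts (PAN3) and 22 transcripts (CNOT1) among those matched in the files. Reads can be divided wrongly where a gene shares sequence with another. The share of a gene's 31-base stretches that also occur in transcripts of other genes on the same strand was between 0.00852% (TNRC6C) and 3.29% (CNOT7, through its pseudogenes) for 8 members. It was 8.02% for DDX6, which has pseudogenes too, and 18.2% for EDC4, whose 3′ end overlaps the long non-coding RNA ENSG00000263126 on the same strand. That RNA had between 119 and 229 estimated counts in a chrRNA-seq sample, against 1511 to 3018 for EDC4.

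The promoters of EDC4, TNRC6A and PAN2 are shown as examples. EDC4 and TNRC6A, like DDX6 and CNOT1, were lower in chromatin RNA of both inducible lines, and PAN2 was the gene that moved apart from them. Each sequence is taken from RefSeq on GRCh38.p14 and runs, in the direction of the gene, from 250 bases before its annotated start to 50 bases from the start on. Capitals mark CpG dinucleotides. The windows are chr16:67872802-67873101 (plus strand) for EDC4, chr16:24729401-24729700 (plus strand) for TNRC6A and chr12:56333951-56334250 (minus strand) for the outer of the 2 starts of PAN2.
EDC4: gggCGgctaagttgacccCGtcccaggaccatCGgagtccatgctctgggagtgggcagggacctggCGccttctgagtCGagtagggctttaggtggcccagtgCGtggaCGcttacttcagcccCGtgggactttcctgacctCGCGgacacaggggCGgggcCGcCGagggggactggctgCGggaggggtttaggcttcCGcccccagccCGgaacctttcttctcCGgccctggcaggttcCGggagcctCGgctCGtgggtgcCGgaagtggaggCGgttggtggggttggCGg
TNRC6A: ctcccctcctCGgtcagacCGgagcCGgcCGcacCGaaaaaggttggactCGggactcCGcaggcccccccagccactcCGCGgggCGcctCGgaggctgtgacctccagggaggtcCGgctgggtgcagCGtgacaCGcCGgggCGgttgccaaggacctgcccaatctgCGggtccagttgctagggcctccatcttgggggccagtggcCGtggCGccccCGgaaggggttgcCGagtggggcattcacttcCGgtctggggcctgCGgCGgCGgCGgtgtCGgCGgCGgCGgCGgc
PAN2: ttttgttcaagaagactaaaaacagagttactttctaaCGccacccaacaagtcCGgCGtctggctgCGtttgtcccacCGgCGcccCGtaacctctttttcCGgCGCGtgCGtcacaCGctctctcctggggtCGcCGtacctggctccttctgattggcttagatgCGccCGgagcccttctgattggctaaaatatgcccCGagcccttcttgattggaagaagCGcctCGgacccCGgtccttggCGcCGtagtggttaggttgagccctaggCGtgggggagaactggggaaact
The window of EDC4 holds 23 CpG dinucleotides, that of TNRC6A 31 and that of PAN2 23, whereas the median of 35116 RefSeq promoters of this length is 14. The inner start of PAN2 holds 15, close to the median. CNOT6 (36) and the 3 starts of DDX6 (33 to 36) are richer, TNRC6B (15) is close to the median, and the 4 starts of TNRC6C range from 2 to 29. A total of 5 short motifs was searched on both strands, and overlaps between them were not removed. GGGCGG, the GC box, occurs 3 times for EDC4 and once for TNRC6A, and 45% of all promoters hold it. CCGGAAG, the core bound by ETS factors, occurs once for EDC4 and 2 times for TNRC6A, against 10.3% of all promoters. CCAAT occurs 3 times in the PAN2 window, once for TNRC6A and not for EDC4, and is found in 34.6% of promoters. CACGTG and TATAAA, present in 7.26% and 11.5% of promoters, are in none of the 3 windows. Whether the motifs go with the direction of change was not tested, and no promoter of CNOT1 was available. DDX6 and TNRC6B are given beside the 3 windows. None of the 3 starts of DDX6, which was also lower in both lines, holds CCGGAAG or CCAAT. TNRC6B, which did not pass in chromatin RNA, holds CCGGAAG once and CCAAT 5 times. These matches describe the letters of the windows and no binding was measured.

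The levels of the members in wt cells are compared per length, in TPM. In mRNA-seq the nuclease subunit CNOT7 was highest at 65.3 ± 2.00 TPM (SD, n = 3), followed by the scaffold CNOT1 at 48.0 ± 4.67 TPM and DDX6 at 40.1 ± 0.558 TPM. EDC4 came next with 14.2 TPM. TNRC6A (7.94 TPM), CNOT6 (6.74 TPM) and PAN2 (6.58 TPM) followed with overlapping sample ranges between neighbours in this order, then TNRC6B (5.45 TPM) and PAN3 (5.07 TPM). TNRC6C was lowest at 0.434 TPM, with 0.300, 0.556 and 0.448 TPM in the 3 samples. TNRC6C was thus far below both other paralogs in steady-state RNA. The rest of the order depended on the unit. In CPM, which is not corrected for length, CNOT1 (426), DDX6 (369) and CNOT7 (242) led, and TNRC6B (81.2) stood above TNRC6A (59.4).

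In chromatin RNA the order was different. CNOT1 was highest at 162 TPM, and the GW182 genes TNRC6A (94.1 TPM) and TNRC6B (71.8 TPM) came before DDX6 (51.7 TPM), PAN2 (47.4 TPM) and EDC4 (44.2 TPM). CNOT6 (27.6 TPM) and TNRC6C (26.3 TPM) overlapped, and CNOT7 (22.7 TPM) and PAN3 (16.1 TPM) were last. By CPM, however, DDX6 (238) and EDC4 (181) stood above TNRC6A (171). Transcripts annotated as protein-coding held 14.4% of the TNRC6A TPM in wt chromatin RNA and 46.9% in wt mRNA-seq. The place of TNRC6A and its ratio between the assays therefore depend on the transcripts counted. TNRC6C, the lowest member in mRNA-seq, measured 28.7 and 24.0 TPM in the 2 samples. On the log2 scale, mRNA-seq TPM over chrRNA-seq TPM in wt was -5.92 for TNRC6C, -3.72 for TNRC6B and -3.57 for TNRC6A. The median of 10006 protein-coding genes was -1.07. This median covers genes above a minimum mean TPM in both assays, which TNRC6C with 0.434 TPM in mRNA-seq did not reach. Genes with as little steady-state RNA as TNRC6C are therefore not in that median. CNOT7 was the member with the opposite balance, at 1.53. The assays were prepared and sequenced separately, so that this ratio also holds whatever differs between the libraries.

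The transcripts behind these levels differed between the assays (see the plot of transcript classes). Ensembl and GENCODE list retained-intron and other non-coding transcripts for most of these genes, and kallisto divides the reads of a gene among them. In wt mRNA-seq, transcripts annotated as protein-coding took 97.2% of the counts of CNOT1, 96.6% of DDX6 and 98.6% of TNRC6B, and the median over 12761 tested protein-coding genes was 93.7%. The means of PAN2 (60.2%), EDC4 (50.2%) and TNRC6C (57.9%) lay below the lower quartile of 76.6%. The samples ranged from 45.3% to 79.8% for PAN2 and from 28.6% to 77.6% for TNRC6C, so that the first wt sample was above that quartile for both. In chromatin RNA of wt cells the share was 17.5% for PAN2 and 37.0% for EDC4, with a median of 76.9% and a lower quartile of 44.3% over 16672 genes. The chromatin counts of PAN2 and EDC4 were therefore mostly assigned to transcripts outside the class annotated as protein-coding. The index holds no introns apart from annotated retained-intron transcripts. In chromatin RNA this split can therefore not tell unspliced RNA from non-coding transcripts, and its estimates are uncertain.

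**Figure D1:**
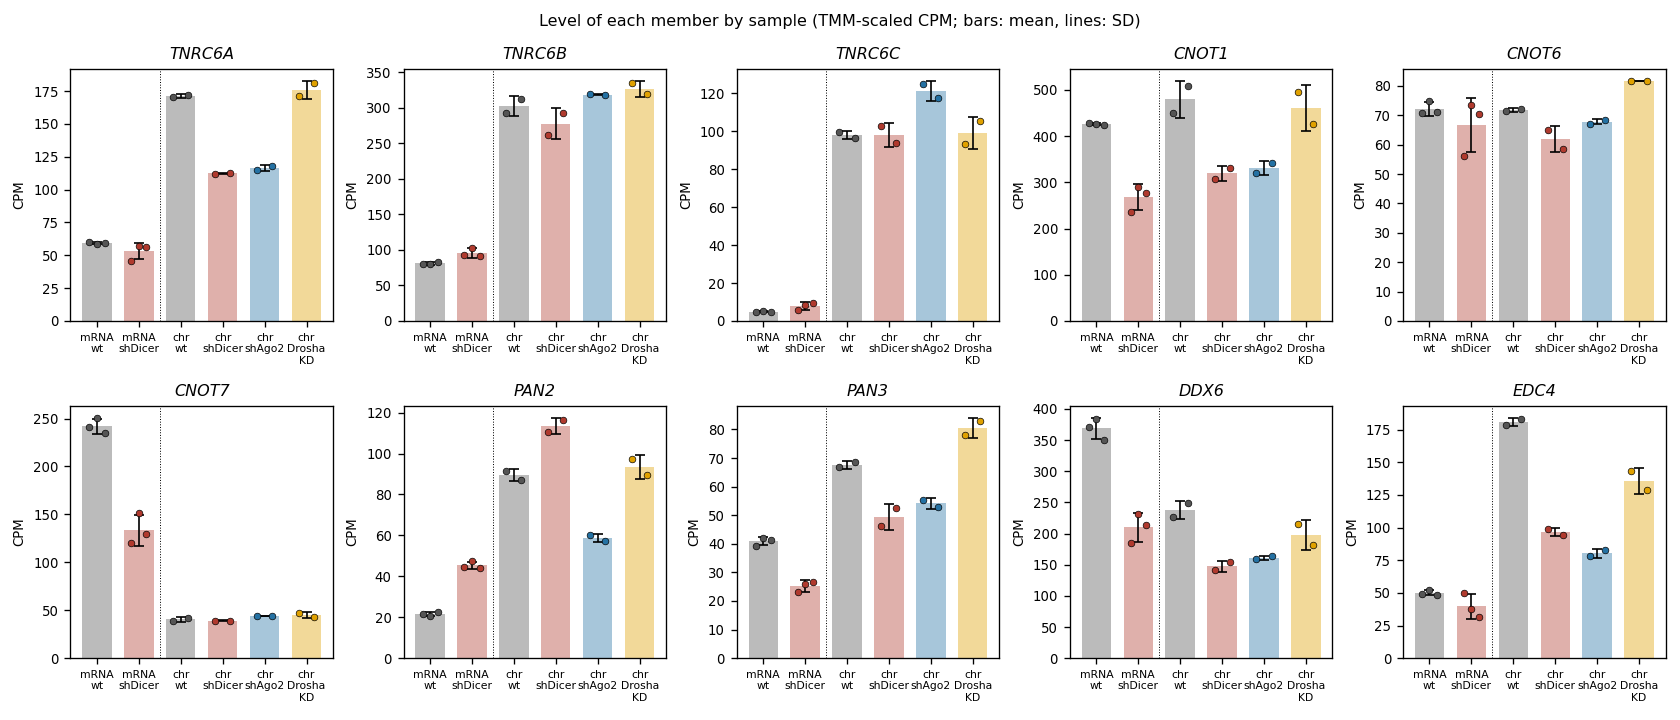
Level of each of the 10 members in CPM (vertical axes, scaled with TMM factors) in every sample, with points for samples, bars for the group mean and lines for the SD; the dotted line parts mRNA-seq (left) from chrRNA-seq (right), whose values should not be set against each other within a panel. PAN2 stands higher in both shDicer groups and lower in shAgo2, CNOT7 is lower in shDicer in mRNA-seq and level across the chrRNA-seq groups, and the DroshaKD points lie near wt for most members.

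The comparison of shDicer with wt in mRNA-seq asks which of these genes change in steady-state RNA when Dicer is depleted. PAN2 was higher and CNOT7, DDX6, PAN3 and CNOT1 were lower, at the adjusted p-value under 0.001 that the study used, while all 3 GW182 genes, CNOT6 and EDC4 did not pass. Thus 1 of 10 members was higher and 4 of 10 were lower, against 15.6% and 14.2% of the 15090 genes tested. The median log2 fold change was -0.25 over the members and 0.01 over all genes tested.

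PAN2, the nuclease of the PAN2-PAN3 complex, measured 21.6, 20.5 and 22.5 CPM in wt and 44.3, 47.5 and 44.1 CPM in shDicer. The groups did not overlap and the samples within each lay close together. The log2 fold change was 1.07 ± 0.0952 (SE, adjusted p = 4.58e-06, edgeR). PAN3, its partner, moved the other way. It measured 39.3, 42.2 and 41.5 CPM in wt and 23.0, 26.1 and 26.8 CPM in shDicer, a log2 fold change of -0.69 ± 0.0993 (adjusted p = 0.000141, edgeR), which was lost without the second wt sample (adjusted p = 0.00123).

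The CCR4-NOT members did not move alike. CNOT7 fell from 241, 251 and 235 CPM to 120, 151 and 129 CPM, every shDicer sample being well below every wt sample, with a log2 fold change of -0.86 ± 0.0879 (adjusted p = 1.25e-05, edgeR). CNOT1, the scaffold, fell from 428, 427 and 424 CPM to 236, 291 and 278 CPM (log2 fold change -0.67 ± 0.0825, adjusted p = 4.82e-05). CNOT6, the nuclease of the other family, measured 70.6, 74.9 and 71.0 CPM in wt and 56.1, 73.3 and 70.3 CPM in shDicer. Its groups overlapped and the log2 fold change of -0.12 ± 0.101 did not pass (adjusted p = 0.355).

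DDX6, the helicase, fell from 371, 384 and 351 CPM to 186, 232 and 213 CPM (log2 fold change -0.81 ± 0.0868, adjusted p = 1.73e-05, edgeR). EDC4 measured 49.2, 52.6 and 48.7 CPM in wt and 49.7, 37.9 and 31.4 CPM in shDicer. The first shDicer sample lay inside the wt range and the log2 fold change of -0.34 ± 0.145 did not pass (adjusted p = 0.0634), but it was -0.54 with an adjusted p of 0.000963 without the first shDicer sample.

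Among the GW182 genes, TNRC6A measured 60.1, 59.0 and 59.3 CPM in wt and 45.9, 56.8 and 56.4 CPM in shDicer (log2 fold change -0.16 ± 0.0957, adjusted p = 0.167). TNRC6B measured 80.0, 80.2 and 83.4 CPM in wt and 92.7, 103 and 91.4 CPM in shDicer (log2 fold change 0.24 ± 0.0747, adjusted p = 0.0187). TNRC6C, with few counts in this assay, measured 4.78, 5.07 and 4.91 CPM in wt and 5.88, 8.17 and 9.60 CPM in shDicer. Its groups did not overlap, but the log2 fold change of 0.69 ± 0.198 did not pass (adjusted p = 0.0119). It did pass without the first shDicer sample, with 0.86 and an adjusted p of 0.000944.

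The values of PAN2, TNRC6A and EDC4 in this comparison depended on how transcripts were counted. The rise of PAN2 was carried by its protein-coding transcripts, which went from 13.0 ± 3.97 to 34.8 ± 3.26 CPM (SD, n = 3), while its other transcripts measured 8.53 ± 3.66 and 10.5 ± 1.35 CPM. Counted over protein-coding transcripts alone the log2 fold change of PAN2 was 1.39 (adjusted p = 0.000262). In TPM, where short transcripts weigh more, PAN2 measured 6.05, 6.44 and 7.26 in wt and 5.92, 7.01 and 8.82 in shDicer, which overlap, and with counts rebuilt from TPM the log2 fold change was 0.42 (adjusted p = 0.0135). For TNRC6A the groups were separate in TPM and not in protein-coding CPM. Its TPM fell from 6.61, 9.53 and 7.68 to 2.85, 4.15 and 4.93, without overlap, and counts rebuilt from TPM gave -0.72 (adjusted p = 0.0026), which did not pass 0.001 either, whereas its protein-coding transcripts measured 52.8 ± 1.97 CPM in wt and 51.1 ± 5.25 CPM in shDicer. The other transcripts of TNRC6A measured 6.65 ± 1.88 and 1.94 ± 0.908 CPM. EDC4, whose groups overlapped in CPM, measured 13.1, 15.5 and 13.9 TPM in wt and 6.70, 8.68 and 7.20 TPM in shDicer, without overlap.

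**Figure D2:**
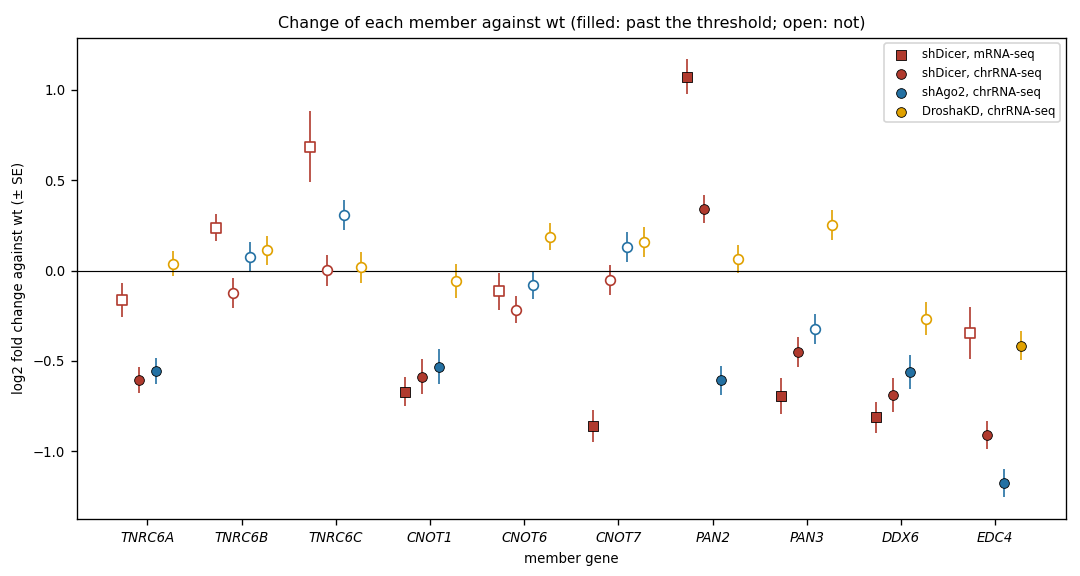
Log2 fold change against wt (vertical axis) with its SE for each member (horizontal axis), for shDicer in mRNA-seq (squares) and for shDicer, shAgo2 and DroshaKD in chrRNA-seq (circles); filled symbols passed the threshold of their comparison. EDC4, TNRC6A, CNOT1 and DDX6 are below 0 and filled for both shDicer and shAgo2 in chrRNA-seq, PAN2 has opposite signs in these comparisons, and of the DroshaKD symbols that of EDC4 is filled.

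The comparisons of chromatin RNA ask whether the same genes differ before the RNA is released. In shDicer, EDC4, DDX6, TNRC6A, CNOT1 and PAN3 were lower and PAN2 was higher at an adjusted p-value under 0.005. This made 5 of 10 lower and 1 of 10 higher, against 10.5% and 11% of the 32874 genes tested. Of these genes 16672 are protein-coding, as all members are. The shares of all genes, here and elsewhere, are not matched to the members by level. In shAgo2, EDC4, PAN2, DDX6, TNRC6A and CNOT1 were lower and no member was higher, against 12.1% lower and 12.5% higher among all genes. The medians of the members' log2 fold changes were -0.33 and -0.43, where those of all genes were 0.01 and 0.00. Both comparisons use the same 2 wt samples, so that values of wt enter both, and the counts of members called rest on them.

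EDC4, the decapping scaffold, showed the largest change of the members in both lines. It measured 179 and 183 CPM in wt, 98.6 and 94.2 CPM in shDicer and 77.9 and 82.5 CPM in shAgo2. No sample of either line came near wt. The log2 fold changes were -0.91 ± 0.0788 (adjusted p = 3.64e-06) and -1.17 ± 0.0795 (adjusted p = 3.92e-07, edgeR). Both classes of EDC4 transcripts were lower. The protein-coding ones went from 66.9 CPM in wt to 28.9 CPM in shDicer and 22.9 CPM in shAgo2, and the others from 114 CPM to 67.5 CPM and 57.3 CPM.

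TNRC6A was the only GW182 gene that passed in chromatin RNA. It measured 170 and 172 CPM in wt, 112 and 113 CPM in shDicer and 115 and 118 CPM in shAgo2. The samples of each group differed by far less than the groups did. Its log2 fold changes were -0.61 ± 0.0714 (adjusted p = 4.07e-05) and -0.56 ± 0.0713 (adjusted p = 6.62e-05, edgeR). TNRC6B, the paralog with the most chromatin CPM, measured 293 and 312 CPM in wt, 263 and 293 CPM in shDicer and 319 and 319 CPM in shAgo2, with log2 fold changes of -0.12 ± 0.0812 and 0.07 ± 0.0811 that did not pass (adjusted p = 0.259 and 0.495). TNRC6C measured 99.5 and 96.3 CPM in wt, 103 and 93.6 CPM in shDicer and 125 and 117 CPM in shAgo2. Its shAgo2 samples lay above wt, but 0.31 ± 0.0845 on the log2 scale missed the threshold (adjusted p = 0.0117).

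The 3 paralogs therefore made up different parts of the GW182 RNA. TNRC6A took 48.8% and 49.1% of their summed TPM in chromatin RNA of wt cells, 40.0% and 40.3% in shDicer, 35.2% and 35.0% in shAgo2 and 48.7% and 49.2% in DroshaKD. TNRC6B took 36.6% and 38.2% in wt and 46.8% and 48.0% in shAgo2. When only protein-coding transcripts were summed, TNRC6B was the largest part in every chrRNA-seq sample, with 57.6% and 62.6% in wt and 72.2% and 71.0% in shAgo2, and TNRC6A took 22.6% and 21.3% in wt, 15.0% and 12.7% in shDicer and 10.2% and 11.4% in shAgo2. The TNRC6A share was lower in both lines than in wt by either sum. In mRNA-seq, TNRC6A took 47.7%, 47.7% and 42.7% of the protein-coding GW182 TPM in wt and 33.3%, 40.5% and 41.3% in shDicer, and TNRC6C between 1.33% and 4.21% in any sample.

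CNOT1 measured 451 and 508 CPM in wt, 307 and 331 CPM in shDicer and 321 and 342 CPM in shAgo2 (log2 fold changes -0.59 ± 0.0966 and -0.53 ± 0.0965, adjusted p = 0.000495 and 0.000854, edgeR). DDX6 measured 227 and 248 CPM in wt, 141 and 154 CPM in shDicer and 158 and 164 CPM in shAgo2 (-0.69 ± 0.0938 and -0.56 ± 0.0936, adjusted p = 0.000122 and 0.000464). For both genes the 2 lines lay next to each other and below wt. Without the second wt sample CNOT1 no longer passed in either line (adjusted p = 0.0102 and 0.0159), and DDX6 no longer passed in shAgo2 (adjusted p = 0.00917). Leaving out either shAgo2 sample also ended the shAgo2 calls of CNOT1 (adjusted p = 0.0171 and 0.0079) and DDX6 (adjusted p = 0.00964 and 0.00667).

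The nucleases of CCR4-NOT stayed close to wt in chromatin RNA. CNOT6 measured 71.3 and 72.2 CPM in wt, 64.9 and 58.6 CPM in shDicer and 67.2 and 68.4 CPM in shAgo2, with log2 fold changes of -0.22 ± 0.0756 and -0.08 ± 0.0752 (adjusted p = 0.0405 and 0.416). CNOT7 measured 38.8 and 42.1 CPM in wt, 38.6 and 39.3 CPM in shDicer and 44.2 and 44.4 CPM in shAgo2, with -0.05 ± 0.0831 and 0.13 ± 0.0824 (adjusted p = 0.654 and 0.225).

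PAN2 was the member that passed in both lines with opposite directions. It measured 91.6 and 87.3 CPM in wt, 111 and 116 CPM in shDicer and 60.0 and 57.4 CPM in shAgo2. The 3 groups did not overlap. Against wt the log2 fold change was 0.34 ± 0.0765 in shDicer (adjusted p = 0.00395) and -0.61 ± 0.0782 in shAgo2 (adjusted p = 6.74e-05), and the direct test of shAgo2 against shDicer gave -0.95 ± 0.0777 (adjusted p = 3.09e-05, edgeR). The rise in shDicer passed narrowly and was lost with DESeq2 (adjusted p = 0.0078), without either wt sample, either shDicer sample or either shAgo2 sample (adjusted p between 0.00743 and 0.0543). The difference lay mostly in counts assigned to transcripts that are not annotated as protein-coding. These measured 73.7 ± 1.17 CPM in wt, 91.3 ± 5.32 CPM in shDicer and 43.4 ± 0.0134 CPM in shAgo2 (SD, n = 2). The protein-coding ones measured 15.7 ± 1.89, 22.0 ± 1.32 and 15.3 ± 1.80 CPM, and over these alone the shAgo2 change was -0.04 (adjusted p = 0.853). PAN3 measured 66.7 and 68.5 CPM in wt, 46.3 and 52.7 CPM in shDicer and 55.4 and 52.8 CPM in shAgo2, with log2 fold changes of -0.45 ± 0.0836 (adjusted p = 0.00114) and -0.32 ± 0.0832 (adjusted p = 0.00853), of which the second did not pass. The shDicer call was lost without either wt sample or the first shDicer sample (adjusted p between 0.0102 and 0.0151).

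**Figure D3:**
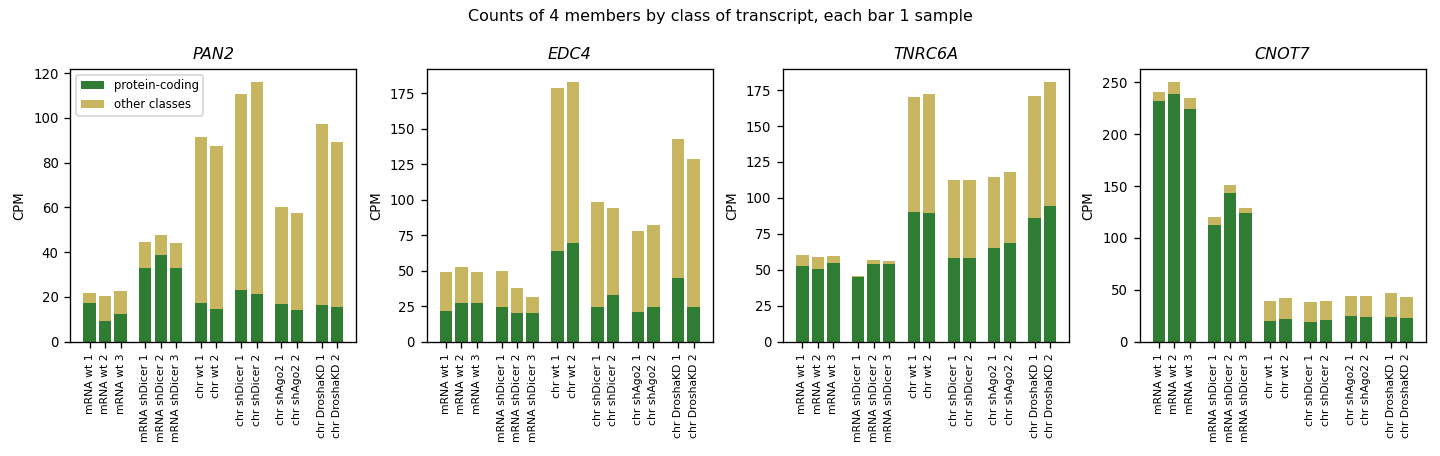
CPM of PAN2, EDC4, TNRC6A and CNOT7 in every sample (1 bar each), split into transcripts annotated as protein-coding (green) and all others (tan). In chrRNA-seq most of the PAN2 and EDC4 counts are in the other classes, the PAN2 bars of shAgo2 are short in that part alone, and the PAN2 rise in shDicer mRNA-seq is in the green part.

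In the libraries labelled DroshaKD, 1 of 10 members was lower and none was higher at an adjusted p-value under 0.05, against 2.18% lower and 1.19% higher among all genes tested. This was EDC4, at 143 and 129 CPM against 179 and 183 CPM in wt (log2 fold change -0.41 ± 0.0779, adjusted p = 0.0166, edgeR). Its DroshaKD samples lay between wt and the shDicer line. The call was lost without either wt sample or without the second DroshaKD sample (adjusted p = 0.138, 0.148 and 0.0601). The other 9 members had log2 fold changes between -0.27 (DDX6, 215 and 181 CPM) and 0.25 (PAN3, 77.9 and 83.0 CPM), with adjusted p-values of 0.116 and above. Of these, DDX6 was below both wt samples, and PAN3, TNRC6B, CNOT6 and CNOT7 were above both.

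Direct comparisons between the groups tested where the lines differ. Between shAgo2 and shDicer, PAN2 was the 1 member that differed, against 2.71% of all genes. EDC4 was lower in shAgo2 by 0.27 ± 0.0797 on the log2 scale (adjusted p = 0.0571) and TNRC6C was higher by 0.31 ± 0.0842 (adjusted p = 0.0406), which did not pass 0.005. For TNRC6A the difference was 0.05 ± 0.0719, for CNOT1 0.05 ± 0.0963 and for DDX6 0.13 ± 0.0939. Between shDicer and DroshaKD 6 members differed, all lower in shDicer, against 20.5% of all genes changed in either direction. Of the 32874 genes tested, 3126 were lower and 3608 higher in shDicer. The 6 members were PAN3 (-0.70), TNRC6A (-0.65), CNOT1 (-0.53), EDC4 (-0.49), DDX6 (-0.42) and CNOT6 (-0.40). Leaving out 1 sample at a time, the call of DDX6 was lost in 7 of 8 fits, that of CNOT6 in 4 and that of CNOT1 in 2. Between shAgo2 and DroshaKD 5 members differed, all lower in shAgo2, against 21.9% of all genes in either direction (3399 lower and 3804 higher). The 5 members were EDC4 (-0.76), PAN2 (-0.67), TNRC6A (-0.59), PAN3 (-0.57) and CNOT1 (-0.48). Of these, CNOT1 was lost in 3 of 8 such fits and PAN3 in 1.

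The shDicer change was then compared between the assays in one fit of 10 samples. PAN2 and CNOT7 had different changes in mRNA-seq and chrRNA-seq at an adjusted p-value under 0.005, where 5.03% of the 31106 genes tested did. The change of PAN2 was larger in mRNA-seq by 0.81 ± 0.125 (adjusted p = 0.000497) and that of CNOT7 was lower by 0.73 ± 0.133 on the log2 scale (adjusted p = 0.00169, edgeR). For CNOT7 this sets a fall in steady-state RNA beside a log2 fold change of -0.05 in chromatin RNA. The difference for TNRC6A was 0.52 ± 0.126 (adjusted p = 0.0122) and that for EDC4 0.64 ± 0.198 (adjusted p = 0.0427), neither of which passed, and CNOT1 (-0.01) and DDX6 (-0.05) changed alike within their errors of 0.126 and 0.130. Both results depended on the transcripts counted. With counts rebuilt from TPM the difference was 0.05 for PAN2 (adjusted p = 1) and -0.46 for CNOT7 (adjusted p = 0.0704), and with protein-coding transcripts alone the adjusted p-values were 0.042 and 0.0121. Without the first chrRNA-seq wt sample neither passed (adjusted p = 0.00525 and 0.0153). PAN2 was also lost without the second one, and CNOT7 without the first or second wt sample of mRNA-seq. The durations of doxycycline differ between the assays as well.

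The members were also set beside the genes around them, by the median log2 fold change of the 50 tested genes nearest in order on the same chromosome. These medians were below 0 around 7 of 10 members in shDicer mRNA-seq, 8 of 10 in shDicer chrRNA-seq and 9 of 10 in shAgo2. They spanned -0.48 to 0.42, -0.40 to 0.54 and -0.51 to 0.56. The share of all tested genes with neighbours below 0 was not worked out. These counts of members therefore have no background beside them. The genes around EDC4 had a median of -0.32 in shDicer and -0.51 in shAgo2 chromatin RNA, and EDC4 was below them by 0.59 and 0.66. Those around TNRC6A had -0.24 and -0.37, and TNRC6A was below them by 0.36 and 0.18. CNOT7, at chr8:17224966-17246878, stood in the opposite setting, since the genes around it had medians of 0.42, 0.54 and 0.56 in the 3 comparisons, and its own values lay below these by 1.28, 0.60 and 0.43. Around PAN2 the medians were 0.20, 0.02 and -0.41.

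When the median of the 50 neighbours was taken as the zero point of each gene, the calls changed. The median was entered as a fixed value, so that these p-values do not include its own error. Over 20 neighbours the medians around CNOT7 were 0.66 in shDicer mRNA-seq, 0.37 in shDicer chrRNA-seq and 0.46 in shAgo2. The calls were not repeated with that window. In shDicer mRNA-seq PAN2 (0.87, adjusted p = 2.61e-05) and CNOT7 (-1.28, adjusted p = 9.72e-07, edgeR) still passed, and CNOT1 (-0.40), DDX6 (-0.42) and PAN3 (-0.40) did not. In shDicer chrRNA-seq EDC4 (-0.59), DDX6 (-0.44) and TNRC6A (-0.36) still passed and CNOT7 (-0.60) did so in addition, while CNOT1, PAN3 and PAN2 did not. In shAgo2 EDC4 (-0.66, adjusted p = 5.72e-05) still passed, CNOT7 (-0.43) did so in addition, and TNRC6A, CNOT1, PAN2 and DDX6 did not. EDC4 was thus the member that still passed in chromatin RNA of both lines with its direction against wt. Whether neighbouring genes moved together more than other genes did, and why, was not tested.

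The other genes of the pathway are given from fixed lists, for how many of each passed. Over all genes, 15.6% were higher and 14.2% lower in shDicer mRNA-seq, 11% and 10.5% in shDicer chrRNA-seq, 12.5% and 12.1% in shAgo2, and 1.19% and 2.18% in DroshaKD. The counts below are descriptions to be read against these shares, and several lie near them. Of 8 further CCR4-NOT subunits, none was higher in any comparison with wt. Lower were 2 in shDicer mRNA-seq, namely CNOT9 (-0.67) and CNOT2 (-0.60), 3 in shDicer chrRNA-seq, led by CNOT3 (-0.83) and CNOT4 (-0.57), and 2 in shAgo2, CNOT3 (-1.16) and CNOT10 (-0.42). CNOT3 is a structural subunit, and its mRNA-seq change of -0.70 did not pass.

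Of 17 genes of decapping and 5′ to 3′ decay, 1 was higher and 3 were lower in shDicer mRNA-seq, 1 and 6 in shDicer chrRNA-seq, and 2 and 5 in shAgo2. The paralogs LSM14A and LSM14B, which bind DDX6, had opposite changes in chromatin RNA. LSM14A rose by 0.95 in shDicer and 1.12 in shAgo2, and LSM14B fell by 0.80 and 0.95 on the log2 scale. DCP1A, a cofactor of decapping, had the lowest value of the list in mRNA-seq (-1.02), and LSM4 was the gene that rose there (0.49). PATL1, which bridges deadenylation and decapping, was lower by 0.59 and 0.67 in chromatin RNA of the 2 lines.

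Of 12 genes for poly(A) tail binding and other deadenylases, 11 were tested. None rose and 4 fell in shDicer mRNA-seq, among them TENT4B (-0.91), a poly(A) polymerase that adds tails, PDE12 (-0.69) and PABPC1 (-0.48), the main poly(A)-binding protein of the cytoplasm. In chrRNA-seq 1 rose and 3 fell in shDicer and 3 rose and 3 fell in shAgo2, with PAIP2, an inhibitor of poly(A)-binding protein, at 0.55 and 0.87 and PABPC4 at -0.39 and -0.72.

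The recruiters of deadenylases were the list with more genes higher than lower in each comparison with wt. In the direct comparisons, 4 were higher and 3 lower in shAgo2 against DroshaKD, and 3 and 3 in shDicer against DroshaKD. None passed between shAgo2 and shDicer. Of 17, 16 were tested in mRNA-seq, and 3 rose and 1 fell in shDicer. In chromatin RNA 6 rose and 2 fell in shDicer, and 7 rose and 2 fell in shAgo2. BTG2, an antiproliferative protein that binds the CAF1 nucleases, rose by 2.11 in mRNA-seq and by 1.76 and 1.39 in chromatin RNA. In the libraries labelled DroshaKD, CPEB3 (0.53), CPEB4 (0.51) and PUM2 (0.46) rose. Of the lists above, PABPC4 (-0.36) and ANGEL1 (-0.32), a deadenylase relative, were the genes that fell there.

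Of the 4 Argonaute genes, AGO4 rose (0.90) and AGO3 fell (-0.62) in shDicer mRNA-seq. In chromatin RNA, AGO1 (-0.41) and AGO3 (-0.39) fell in shDicer, and AGO2 (-0.62), AGO1 (-0.45) and AGO3 (-0.37) fell in shAgo2. The Argonaute that the shAgo2 line targets thus fell together with both of these paralogs there.

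The genes most like each GW182 paralog were sought across the 8 chrRNA-seq samples, by Pearson's r of log2 CPM over 12209 protein-coding genes. For TNRC6A they were TAF12 (0.998), SLF2 (0.996) and FAM156A (0.996), for TNRC6B CRIPT (0.985), AGPAT4 (0.979) and DTL (0.978), and for TNRC6C SLC22A23 (0.986), AK9 (0.979) and PRR11 (0.961). None of these is a further member, and the 4 groups of samples shape every one of these values.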

How the data were processed

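RNA from 6 mRNA-seq and 8 chrRNA-seq samples was analysed, and small RNA-seq of 6 further samples of the series was not analysed here. The labels name polyA RNA for mRNA-seq, while in the study's methods ribosomal RNA was depleted. The authors deposited, for each sample, kallisto estimated counts, which are not normalized, and TPM values, which are scaled by transcript length and to a common total, for human cDNA and non-coding RNA of Ensembl. The index holds no introns apart from annotated retained-intron transcripts. The submitters' processing notes name kallisto, DESeq2, Bowtie, TopHat2 and hg38, and their versions are not given there.

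Transcripts were assigned to genes of GENCODE release 44 (GRCh38). Of 217082 transcripts 193697 matched, with between 93.4 and 94.8% of a sample's counts, and the others were left out. Estimated counts were summed per gene and rounded. Genes were filtered with filterByExpr, scaled with TMM factors (0.968 to 1.05 within an assay) and tested with edgeR 4.0.16 in R 4.3.3, by the quasi-likelihood F test with a term for each group and Benjamini-Hochberg adjustment over all genes tested. All adjusted p-values are from edgeR unless DESeq2 (1.42.0) is named. Thresholds were 0.001 for mRNA-seq, 0.005 for chrRNA-seq and 0.05 for DroshaKD, as in the study, and 0.005 for direct comparisons and the difference between assays. Each standard error was derived from the F statistic of its fold change. A floor of 3 counts corresponds to between 0.149 and 0.311 CPM and accounts for counting error alone, because no molecular identifiers were used to tell molecules from copies. The procedure was tested on simulated data.

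The genes and lists were chosen with earlier results of these data known. By name are given the 10 members, the 3 targeted genes and, per list and comparison with wt, up to 3 of the largest changes in each direction among those past the threshold. A further gene that falls under this rule is not reported here. No source states that the samples of a group are separate cultures, so p-values measure the spread between these samples, which may be technical. Replicates differed by more than counting noise (chi-square over its degrees of freedom from 2.37 to 25.2, highest for the first and last shDicer samples of mRNA-seq).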

Additional observations from a re-analysis of the deposited data

Results flagged for a closer look

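The shDicer changes of PAN2 and CNOT7 differed between mRNA-seq and chrRNA-seq by the test of the difference itself. For PAN2 the difference was 0.81 and for CNOT7 it was -0.73 on the log2 scale. The median difference over all genes tested was 0.10, relative to which the values were 0.71 and -0.83. With DESeq2, where that median was -0.21, they were 0.85 and -0.69. In mRNA-seq all 3 shDicer samples of CNOT7 lay below all 3 wt samples, and in chrRNA-seq the groups overlapped. For PAN2 the shDicer samples lay above all wt samples in both assays. In the same fit with each gene set against its neighbours, CNOT7 no longer passed (-0.42, adjusted p = 0.0557) and PAN2 did (0.77, adjusted p = 0.000833, edgeR).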

How the results depend on the processing

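Under the alternatives run, no called change of a member took the opposite sign. CNOT7 in shAgo2, not called at 0.13, became -0.43 (adjusted p = 0.00175, edgeR) with its neighbours' median as zero point. That setting gave 2 members called in place of 5 in shDicer mRNA-seq, 2 in place of 5 in shAgo2, 3 in place of 6 between shDicer and DroshaKD, 1 in place of 5 between shAgo2 and DroshaKD and 1 in place of 2 between the assays. Protein-coding transcripts alone gave 3 in place of 5 in shAgo2, 0 in place of 1 in DroshaKD, 0 in place of 1 between shAgo2 and shDicer, 2 in place of 5 between shAgo2 and DroshaKD and 0 in place of 2 between the assays. Counts rebuilt from TPM gave 0 in DroshaKD and 0 between the assays. RLE size factors, and likewise no low-count filter, left 1 of 2 between the assays. Only the 2 groups compared left 2 of 6 between shDicer and DroshaKD. A threshold of 0.05 gave 2 members between shAgo2 and shDicer, 8 between shAgo2 and DroshaKD and 6 between the assays, and 0.005 gave 0 in DroshaKD. A log2 fold change of at least 1 left 1 member in shDicer mRNA-seq (PAN2), 1 in shAgo2 (EDC4) and 0 in each other comparison. The causes of these shifts were not tested.

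Leaving out 1 sample, members called ranged from 4 to 7 in shDicer mRNA-seq, 3 to 6 in shDicer chrRNA-seq, 3 to 6 in shAgo2, 0 to 1 in DroshaKD, 1 to 1 between shAgo2 and shDicer, 3 to 5 between shDicer and DroshaKD, 3 to 6 between shAgo2 and DroshaKD and 0 to 4 between the assays. The 3 in shDicer chrRNA-seq came without the second wt sample, and the 3 in shAgo2 without that sample or either shAgo2 sample. In DroshaKD 0 came without either wt sample or the second DroshaKD sample, 3 between shDicer and DroshaKD without the first DroshaKD sample, and 3 between shAgo2 and DroshaKD without the second shAgo2 sample. Between the assays 0 came without the first chrRNA-seq wt sample, 1 without the second or without the first or second mRNA-seq wt sample, and 4 without the first shDicer mRNA-seq sample. Where this left a group with 1 sample, that sample was assumed to vary like the other groups.

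Same-numbered samples had deviations from their group means that correlated at 0.0455 to 0.0812 in mRNA-seq and -0.131 to 0.0279 in chrRNA-seq, so the numbers were not taken to pair samples. With a replicate block, 0 members were called in DroshaKD in place of 1 (EDC4, adjusted p = 0.0512), and PAN2 in shDicer chrRNA-seq (adjusted p = 0.0095), CNOT1 between shAgo2 and DroshaKD (0.00633) and DDX6 between shDicer and DroshaKD (0.0107) no longer passed. No other call of a member changed.

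Among all genes, 891 were called between shAgo2 and shDicer and 1110 in DroshaKD. The replicate block gave 413 and 452, counts rebuilt from TPM 398 and 347, and protein-coding transcripts alone 320 and 708, and 1414 between shAgo2 and shDicer came with no low-count filter and 420 with neighbours as zero point. Between the assays 1564 became 812 with no low-count filter, 645 from TPM and 790 with protein-coding transcripts, and between shDicer and DroshaKD 6734 became 4194 with only these groups fitted. Library size alone moved the DroshaKD split from 1.19% higher and 2.18% lower to 768 genes higher and 527 lower, and RLE moved that between the assays from 1189 and 375 to 654 and 579, with DESeq2 at 1135 and 1138. Leaving out 1 sample gave 72 to 1718 in DroshaKD (72 and 90 without a wt sample), 107 to 1109 between shAgo2 and shDicer (107 and 129 without an shAgo2 sample), 3843 to 7541 in shDicer chrRNA-seq and 4448 to 8627 in shAgo2, and 2725 to 4692 in shDicer mRNA-seq, and the shares of all genes printed beside the members move with these counts. A threshold of 0.05 gave 8663 genes in place of 4492 in shDicer mRNA-seq, 12395 in place of 7096 in shDicer chrRNA-seq and 13501 in place of 8069 in shAgo2.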
